A study of Homo sapiens with 16 samples.

Results

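The 4 human HOX clusters, with the HOTAIR locus inside the HOXC cluster, held 97 of the 85586 LSD1 islands called in this series. An island is a stretch of the genome where an LSD1 immunoprecipitation (IP) held more reads than its Input, the same chromatin before precipitation, at a false discovery rate (FDR) below 0.05. Islands were chosen by position alone: each shared at least 1 bp with one of 4 windows of the build hg19, which were HOXA chr7:27110001-27270000, HOXB chr17:46580001-46830000, HOXC with HOTAIR chr12:54310001-54470000 and HOXD chr2:176930001-177080000. Of the 97 islands, 25 lay in the HOXA window, 27 in HOXB, 16 in HOXC and 29 in HOXD, and 2 crossed a window edge. The windows stand for 39 listed genes. A further 405 islands were counted in the 1 Mb on each side of the windows.

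LSD1 was mapped by chromatin immunoprecipitation and sequencing in 4 lines made from HEK, a human embryonic kidney cell line, with 2 independently grown cultures per line and an IP and an Input library from each, 16 libraries in all. The labels name the lines without describing them, and what follows is background knowledge of the study. Epi-CTR serves as the control and Epi-HOT makes HOTAIR. Epi-HOT<delta>P, written Epi-HOT-dP here, makes a HOTAIR that lacks the part binding PRC2, and Epi-HOT<delta>L, written Epi-HOT-dL, makes one that lacks the part binding LSD1. All lines were grown in the same medium and fixed with formaldehyde, and no further treatment is labelled. No source used here gives the promoter that drives HOTAIR or says whether a line is 1 clone. The files hold no expression values, so neither the level of HOTAIR nor the identity of a line could be checked.

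The 8 lists differed in length, from 1116 to 20592 islands. Both shortest lists, 1778 islands from Epi-HOT replicate 2 and 1116 from Epi-HOT-dP replicate 1, stood apart from the other 6 (6557 to 20592) and covered 0.561% and 0.452% of the autosomes, against 2.77% to 7.26%. No list gives reads or library totals. The depth behind each value is therefore unknown, and a place without an island may be a place with fewer reads. What part depth had in any result below was not tested, and results that rest on the 2 short lists are given with and without them.

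HOX genes encode homeodomain transcription factors that give cells their position along the body axis, and within a cluster the genes lie in the order in which they act along that axis. Low-numbered genes act towards the head and high-numbered genes towards the tail. The clusters are classic targets of Polycomb repression, in which PRC2 methylates histone H3. HOTAIR, a long non-coding RNA transcribed from the HOXC cluster, is known for binding both PRC2 and the LSD1 complex and was first described as acting on the HOXD cluster. LSD1 (KDM1A) removes methyl groups from histone H3 and sits in repressor complexes with CoREST. Which places in and around the clusters carried LSD1, and in which line, is the question these lists bear on.

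In the RefSeq gene table of GRCh38.p14, which held all 39 members, genes are ordered here by their start along the chromosome. The HOXA order was HOXA2, HOXA3, HOXA4, HOXA5, HOXA6, HOXA7, HOXA9, HOXA10, HOXA11 and HOXA13, and the HOXB order was HOXB1, HOXB2, HOXB3, HOXB4, HOXB5, HOXB6, HOXB7, HOXB8, HOXB9 and HOXB13. The other clusters run the opposite way. The HOXC order was HOXC13, HOXC12, HOTAIR, HOXC11, HOXC10, HOXC9, HOXC8, HOXC4, HOXC5 and HOXC6, and the HOXD order was HOXD13, HOXD12, HOXD11, HOXD10, HOXD9, HOXD8, HOXD4, HOXD3 and HOXD1. HOTAIR thus lies between HOXC12 and HOXC11. HOXC4, HOXC5 and HOXC6 break the falling numbers here. Genes were sorted by annotated start alone, which need not follow the order of their coding parts. The nearest protein-coding neighbours outside the members are SKAP2 and EVX1 at HOXA, SKAP1 and TTLL6 at HOXB, CALCOCO1 and SMUG1 at HOXC, and EVX2 and MTX2 at HOXD. The table belongs to another build than the islands, so only gene order was taken from it and no island was assigned to a gene.

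Most HOX promoters at hand, mainly of HOXA and HOXD, were rich in the dinucleotide CG, the substrate of DNA methylation. A CG-rich and a CG-poor one are therefore shown. RefSeq promoters (GRCh38.p14, from 250 bases before to 50 bases after the start) were matched for 20 of the 39 members, with 27 entries. These entries held a median of 22 CG, against 14 over all 35116 promoters in the table, and 20 of the 27 lay above that median. HOXB was represented by HOXB1 only (11 CG), and HOXC by HOXC4 and HOXC5 only (15 CG each). HOXA13, which patterns the limb end and the urogenital tract, had the most, with 44 CG, a number reached by 4.19% of all promoters. HOXD4, which acts in the hindbrain and neck vertebrae, had the fewest among the 18 members with 1 start, with 4 CG. The promoters of HOXA13 (minus strand of chromosome 7, 27200042 to 27200341) and HOXD4 (plus strand of chromosome 2, 176151300 to 176151599) are given 5′ to 3′ in GRCh38.p14 coordinates, with each CG in capitals. No island was placed on them.
HOXA13: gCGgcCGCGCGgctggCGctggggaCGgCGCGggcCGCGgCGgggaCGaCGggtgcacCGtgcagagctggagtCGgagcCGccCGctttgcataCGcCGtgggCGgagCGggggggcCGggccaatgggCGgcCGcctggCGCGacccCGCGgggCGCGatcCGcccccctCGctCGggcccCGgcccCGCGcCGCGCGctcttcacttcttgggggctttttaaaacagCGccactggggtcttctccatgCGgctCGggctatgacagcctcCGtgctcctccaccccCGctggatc
HOXD4: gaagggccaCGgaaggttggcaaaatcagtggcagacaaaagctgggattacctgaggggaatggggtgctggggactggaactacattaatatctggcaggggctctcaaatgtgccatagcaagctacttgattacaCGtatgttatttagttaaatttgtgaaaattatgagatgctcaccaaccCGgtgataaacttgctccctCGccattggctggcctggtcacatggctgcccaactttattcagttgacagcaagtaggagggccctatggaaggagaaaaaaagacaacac

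The clusters also carry 8 microRNA genes with a mature sequence in the RefSeq table, and the miR-196 family is shown because it ties 3 of the clusters together. MIR196A1 in HOXB and MIR196A2 in HOXC encode the same miR-196a-5p, and MIR196B in HOXA encodes miR-196b-5p, a family known to repress HOX transcripts. The 2 mature forms share the seed AGGUAGU (bases 2 to 8, in capitals, counted from the 5′ end) and differ by A12C, with the base of miR-196a-5p named first. MIR10A in HOXB encodes miR-10a-5p, whose seed is another one.
miR-196a-5p: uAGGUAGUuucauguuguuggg
miR-196b-5p: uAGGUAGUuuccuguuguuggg
miR-10a-5p: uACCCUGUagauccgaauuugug

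LSD1 islands were found in all 4 clusters. In most libraries the covered share of the 4 windows, summed, was several times that of the autosomes. The HOXC window alone was more covered than the autosomes in 4 of 8 libraries and less covered in 4. The windows held 26 islands in Epi-CTR replicate 1 and 9 in replicate 2, 8 and 0 in the Epi-HOT libraries, 0 and 14 in the Epi-HOT-dP libraries, and 13 and 27 in the Epi-HOT-dL libraries. Covered length in the windows was 251 and 55.6 kb in Epi-CTR, 89.0 and 0 kb in Epi-HOT, 0 and 145 kb in Epi-HOT-dP, and 63.0 and 348 kb in Epi-HOT-dL. The replicates of each line thus lay far apart, and the ranges of all 4 lines overlapped. The libraries without any island in the windows were the 2 with the short lists.

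As a share of the 720 kb of the windows, islands covered 34.9% and 7.72% in Epi-CTR, 12.4% and 0% in Epi-HOT, 0% and 20.1% in Epi-HOT-dP, and 8.75% and 48.4% in Epi-HOT-dL. In the 6 libraries with islands there, this share was 2.69 to 10.8 times that of the autosomes and 1.31 to 6.27 times that of the 1 Mb flanks. The lowest of both ratios came from Epi-CTR replicate 2, and the highest from Epi-CTR replicate 1. In the 2 short lists both ratios were 0.

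**Figure D1:**
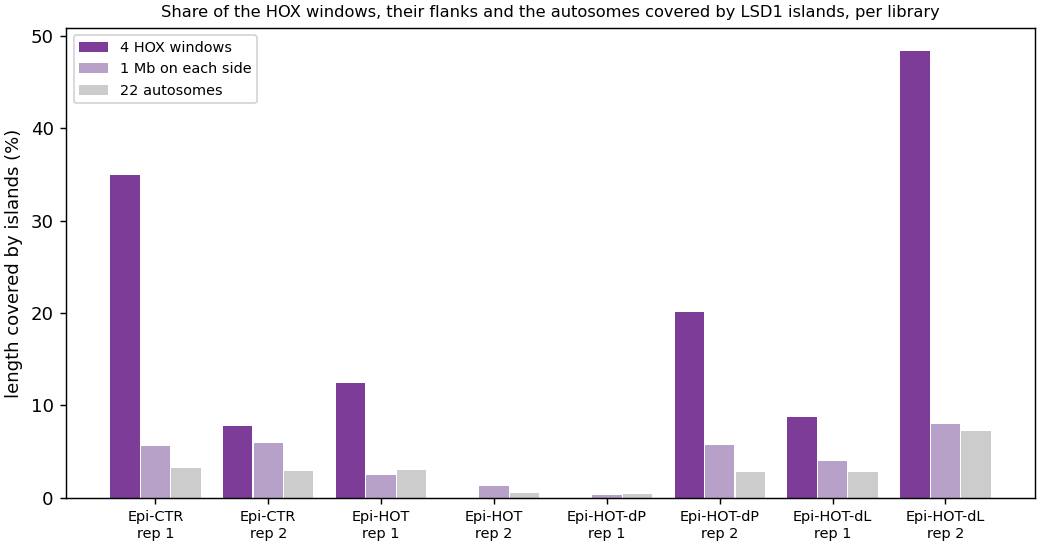
Bars show, for each of the 8 IP libraries, the percentage of length covered by LSD1 islands in the 4 HOX windows, in the 1 Mb on each side and in the 22 autosomes. The windows exceed both other bars in 6 libraries, most in Epi-HOT-dL replicate 2 (48.4%) and Epi-CTR replicate 1 (34.9%), and are at 0 in the libraries with the short lists.

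Averaged over the 8 libraries, the windows exceeded their flanks by 12.4 percentage points (SD 15.1, n = 8) and the autosomes by 13.7 points (SD 15.3). The windows were higher in 6 of 8 libraries in both comparisons (two-sided exact sign-flip permutation test, p = 0.0312, adjusted p = 0.0446 over 10 tests). Without the 2 short lists, the only libraries lower in the windows, the excess was 16.8 and 18.4 points. The adjusted p was the same, and the 6 libraries left cannot give a smaller exact p. The comparison of windows with flanks and autosomes was added after the data had been seen. The call did not hold without any one of the other 6 libraries (exact test, adjusted p = 0.0893, 8.39 to 13.9 points over the flanks), or when only islands with an FDR below 0.001 were used (6.44 points, adjusted p = 0.195).

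By cluster, the mean excess over the flanks was largest at HOXA and HOXD. HOXA exceeded its flanks by 17.7 points (SD 20.6) and HOXD by 16.3 points (SD 17.1), each in 6 of 8 libraries (exact sign-flip permutation test, adjusted p = 0.0446). Like the call over all clusters, both were lost without any one of the 6 libraries with islands (exact test, adjusted p = 0.0893), and with an FDR below 0.001 they came to 11.1 and 7.33 points (exact test, adjusted p = 0.430 and 0.556). With every list cut to the length of the shortest they came to 7.64 and 1.73 points (exact test, adjusted p = 0.625 and 1.00), and with windows widened by 50 kb the adjusted p was 0.0893 for both (exact test). HOXB exceeded the autosomes by 11.9 points (SD 13.9, 6 of 8 libraries, same adjusted p by the exact test) but its own flanks by 7.13 points, in 4 of 8 libraries (exact test, adjusted p = 0.219), and by 3.72 points without Epi-CTR replicate 1. The HOXB call over the autosomes was also lost without any one of the 6 libraries and with widened windows (exact test, adjusted p = 0.0893). With an FDR below 0.001 and with cut lists this excess was 7.09 and 2.82 points (exact test, adjusted p = 0.195 and 0.375). HOXC exceeded its flanks by 9.46 points, with 4 libraries higher and 3 lower (exact test, adjusted p = 0.219). Without Epi-HOT-dL replicate 2 that excess was 2.58 points, and the excess over the autosomes was 5.86 points. The flanks of HOXB and HOXC were themselves well covered, at 7.61% and 6.38% on average, against 1.84% at HOXA and 0.729% at HOXD. Whether the clusters differ from each other in this excess was not tested.

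Each window was hit in more libraries than most autosomal stretches of 180 kb, the mean window length. The HOXB window is longer, at 250 kb, and the others are 150 to 160 kb. A longer window can hold an island more readily, so the stretches match HOXB only loosely. All 4 windows had an island in at least 5 of the 8 libraries, whereas 26.4% of 15460 such stretches did. Epi-CTR replicates 1 and 2 had islands in all 4 windows, against 45.1% and 39.2% of the stretches. Epi-HOT replicate 1 had islands in 3 of 4, HOXC being the exception, against 29.0%, and Epi-HOT replicate 2 in none, against 9.33%. Epi-HOT-dP replicate 1 had none, against 5.03%, and Epi-HOT-dP replicate 2 had islands in all 4, against 26.6%. Both Epi-HOT-dL libraries had islands in all 4 windows, against 42.2% and 40.1%.

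Islands of the clusters were middling in rank. Their median rank by FDR was 53.3% of the way down their own list, 8 of 97 were among the best 10% and 1 among the best 1%, and 36 had an FDR below 0.001. They were 1.40 to 47.8 kb wide with a median of 7.0 kb. In Epi-CTR replicate 1 the median width in the windows was 5.30 kb, against 3.80 kb for the whole list, and in Epi-HOT-dL replicate 2 it was 7.40 kb, against 7.60 kb. The FDR values are the authors' and serve here only to rank islands within a list.

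**Figure D2:**
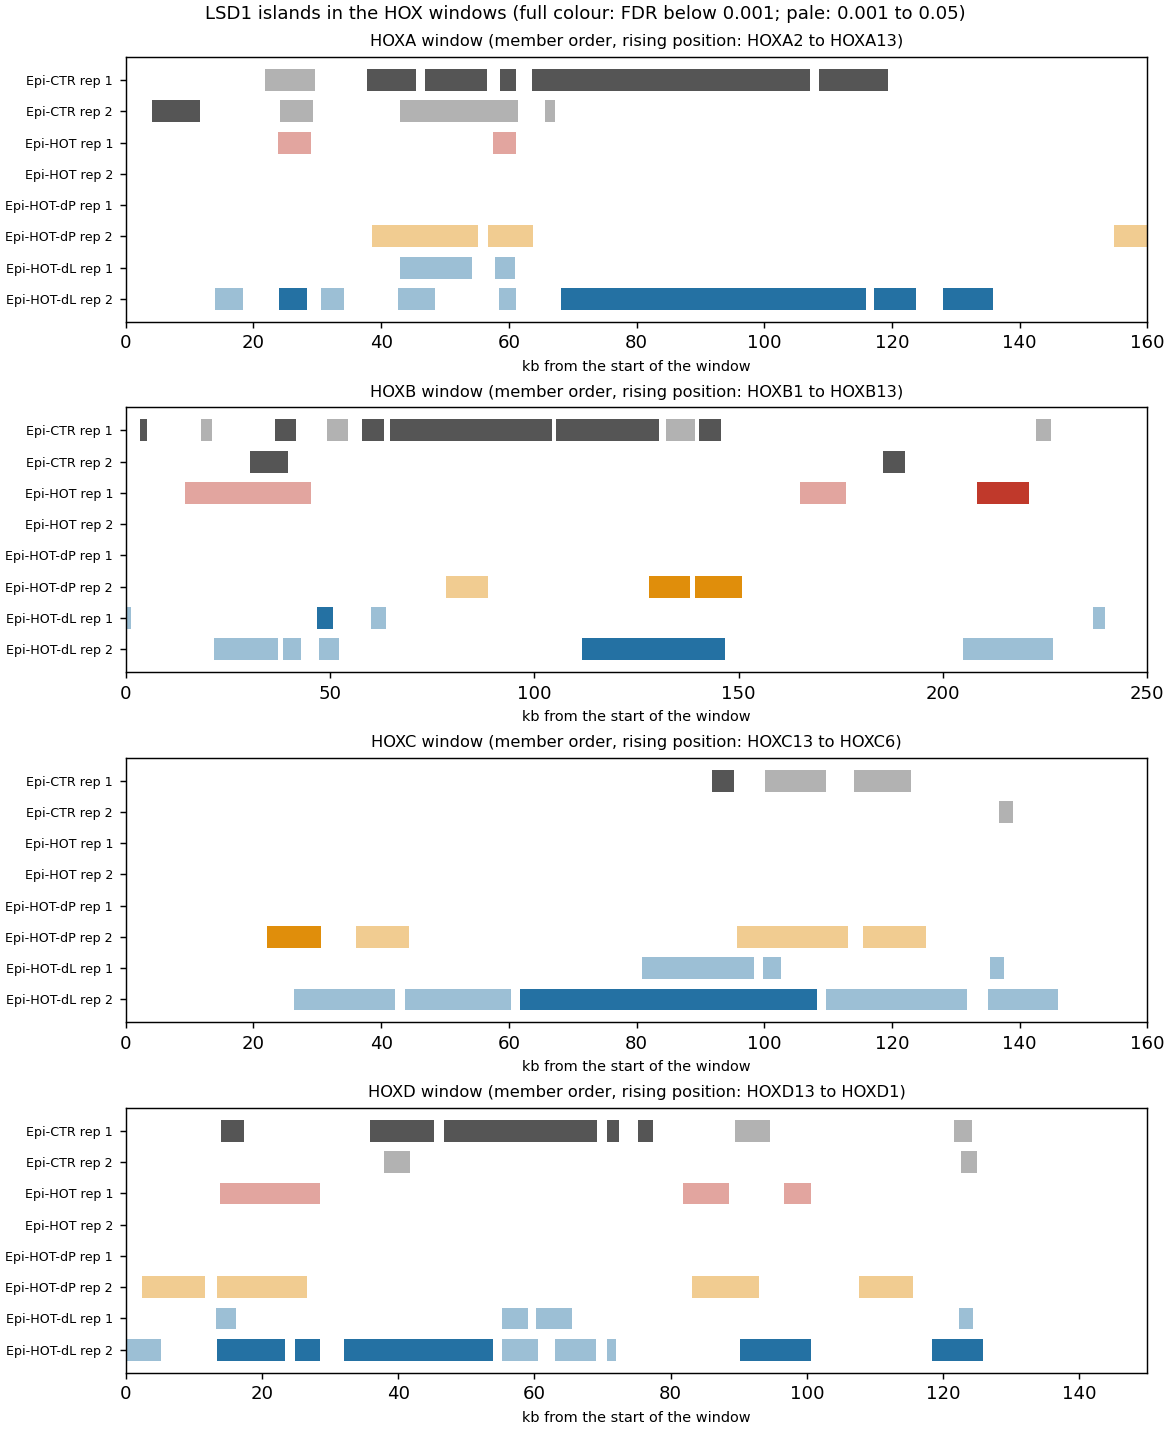
Each panel is 1 HOX window, with the distance from its start in kb on the horizontal axis and 1 row per IP library; bars are LSD1 islands, in full colour where the FDR is below 0.001 and pale above it. The rows of the libraries with the short lists (Epi-HOT replicate 2, Epi-HOT-dP replicate 1) are empty throughout, the HOXC row of Epi-HOT replicate 1 is empty too, and the widest bars are those of Epi-HOT-dL replicate 2 in HOXA (47.8 kb) and HOXC (46.4 kb) and of Epi-CTR replicate 1 in HOXA (43.6 kb).

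The HOXC window, which holds HOTAIR, had islands in 5 libraries and in neither library of Epi-HOT. Covered length was 21.8 and 2.20 kb in Epi-CTR, 0 kb in both Epi-HOT libraries, 0 and 44.2 kb in Epi-HOT-dP, and 22.6 and 112 kb in Epi-HOT-dL. Epi-HOT-dL replicate 2 was thus the highest, while Epi-CTR replicate 2 held a single island of 2.20 kb at chr12:54446801-54449000 (FDR 0.00908). Since Epi-HOT replicate 2 is one of the short lists, the absence in Epi-HOT rests mainly on replicate 1, whose list is the shortest of the other 6.

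The part of the HOXC window before its midpoint, on the side where HOXC13 and HOXC12 begin the gene order, was held by 2 libraries. Epi-HOT-dP replicate 2 had islands at chr12:54332201-54340600 (FDR 8.53e-05) and chr12:54346001-54354400 (FDR 0.0444). Epi-HOT-dL replicate 2 had islands at chr12:54336401-54352200 (FDR 0.00211), chr12:54353801-54370400 (FDR 0.00244) and, running past the midpoint, chr12:54371801-54418200 (46.4 kb, FDR 5.82e-06). Before the midpoint these came to 16.8 kb in Epi-HOT-dP replicate 2 and 50.6 kb in Epi-HOT-dL replicate 2, and to 0 kb in the other 6 libraries. Neither Epi-CTR library had an island there. HOTAIR itself could not be placed among these islands, because no annotation of hg19 was used here.

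Beyond the midpoint, on the side of the lower-numbered HOXC genes, 5 libraries had islands. The stretch held by most was chr12:54410201-54412600 (2.4 kb), inside islands of Epi-CTR replicate 1 (FDR 0.00536), Epi-HOT-dP replicate 2 (0.0141), Epi-HOT-dL replicate 1 (0.0386) and Epi-HOT-dL replicate 2 (5.82e-06). A further island of Epi-CTR replicate 1 at chr12:54401801-54405200 had an FDR of 2.83e-04. Near the end of the window, chr12:54445001-54456000 held islands of Epi-CTR replicate 2 (FDR 0.00908) and of both Epi-HOT-dL libraries (0.0327 and 0.0218). The stretch shared by Epi-CTR and Epi-HOT-dL libraries there had no island in Epi-HOT or Epi-HOT-dP, of which 1 library each is a short list.

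Where no island was called at HOXC, the nearest ones lay outside the window. In Epi-HOT replicate 1 the nearest was 197 kb before it, at chr12:54103001-54113400 (FDR 0.0133), and in Epi-HOT replicate 2 it was 144 kb before it, at chr12:54161001-54166200 (FDR 1.56e-04). In Epi-HOT-dP replicate 1 it was 5762 kb away. After the window the nearest islands of these 3 libraries were 1830, 4232 and 8786 kb away.

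HOXA, whose genes pattern the limbs, hindbrain and blood lineages, held the most widely shared LSD1 site of the 4 clusters. A stretch of 2.4 kb at chr7:27168601-27171000 lay inside an island in all 6 libraries that had any island in the windows. The FDR there was 3.29e-06 and 0.0180 in the Epi-CTR libraries, 0.00595 and 0.00481 in the Epi-HOT-dL libraries, 0.0453 in Epi-HOT-dP replicate 2 and 0.00727 in Epi-HOT replicate 1. The FDR was above 0.001 in 5 of these 6 libraries, every line had 1 or 2 of them, and no place in the windows was held by more than 6 libraries. The neighbouring stretches chr7:27153001-27155400 and chr7:27156801-27158400 were held by 5 libraries, all of these except Epi-HOT replicate 1. A further place, chr7:27134201-27138400, was held by both Epi-CTR libraries, by Epi-HOT replicate 1 and by Epi-HOT-dL replicate 2, with FDR values of 0.0437, 0.0108, 0.0391 and 6.70e-06.

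The far side of the HOXA window, towards HOXA13, was covered in a different set of libraries. Covered length in the whole window was 82.2 and 32.6 kb in Epi-CTR, 8.80 and 0 kb in Epi-HOT, 0 and 28.8 kb in Epi-HOT-dP, and 14.4 and 83.2 kb in Epi-HOT-dL. Beyond the midpoint it was 38.0 kb in Epi-CTR replicate 1, 50.4 kb in Epi-HOT-dL replicate 2 and 5.20 kb in Epi-HOT-dP replicate 2, and 0 kb in the other 5 libraries. The wide islands responsible were chr7:27173601-27217200 in Epi-CTR replicate 1 (43.6 kb, FDR 3.16e-20, rank 275 of 20592) and chr7:27178201-27226000 in Epi-HOT-dL replicate 2 (47.8 kb, FDR 1.93e-13, rank 619 of 15758). Their replicates had little or nothing at this place: Epi-CTR replicate 2 had 1.60 kb at chr7:27175601-27177200 (FDR 0.00529), and Epi-HOT-dL replicate 1 had no island there. At the very end of the window, Epi-HOT-dP replicate 2 had an island crossing the edge at chr7:27264801-27280000 (FDR 0.00993). Further HOXA islands were each in 1 library. They were chr7:27114201-27121600 in Epi-CTR replicate 2 (FDR 5.46e-04) and, in Epi-HOT-dL replicate 2, chr7:27124001-27128400 (0.00102), chr7:27140601-27144200 (0.00147) and chr7:27238001-27245800 (8.74e-04).

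HOXB, the longest window, carried the best ranked island of the clusters, and 1.80 kb of it was held by at least 4 libraries. Covered length was 100 and 14.6 kb in Epi-CTR, 54.6 and 0 kb in Epi-HOT, 0 and 31.6 kb in Epi-HOT-dP, and 11.8 and 81.8 kb in Epi-HOT-dL. In Epi-CTR replicate 1, chr17:46644801-46684200 (39.4 kb) had an FDR of 3.44e-26 and ranked 122 of 20592, and the next island, chr17:46685401-46710400, had an FDR of 9.52e-09. Epi-CTR replicate 2 had no island in either stretch. Its 2 islands of the window were chr17:46610401-46619600 (FDR 5.05e-04) and chr17:46765201-46770600 (FDR 6.09e-04), so the best ranked HOXB island was not found in the second culture of its line.

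The HOXB places held by 4 libraries were chr17:46616601-46617200 and chr17:46618401-46619600, on the HOXB1 side, shared by both Epi-CTR cultures with Epi-HOT-dL replicate 2 and with Epi-HOT replicate 1. No place in the window was held by 5. Both Epi-HOT-dL libraries shared chr17:46626801-46632200 (FDR 3.32e-05 and 0.00669), which Epi-CTR replicate 1 reached with a weak island (FDR 0.0296). In Epi-HOT-dP replicate 2 the strongest island was chr17:46719401-46730800 (FDR 2.06e-07, rank 274 of 8079), next to chr17:46708001-46718000 (FDR 8.04e-05). On the HOXB13 side, Epi-HOT replicate 1 had its strongest island of all the windows, chr17:46788401-46801000 (FDR 8.75e-06), inside a wider one of Epi-HOT-dL replicate 2, chr17:46785001-46807000 (FDR 0.00308).

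The other HOXB islands were seen in few libraries. Epi-HOT-dL replicate 1 had chr17:46578601-46581400 across the window start (FDR 0.00452) and chr17:46816801-46819600 near its end (0.00176). Epi-CTR replicate 1 had chr17:46583401-46585200 (FDR 7.93e-04), Epi-HOT replicate 1 had chr17:46745001-46756200 (0.0379), and chr17:46637801-46643600 was in Epi-CTR replicate 1 (1.23e-04) and Epi-HOT-dL replicate 1 (0.0439). The region chr17:46685401-46730800 joined the Epi-CTR replicate 1 and Epi-HOT-dP replicate 2 islands above with one of Epi-HOT-dL replicate 2 (35.0 kb, FDR 6.26e-04).

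HOXD, the cluster on which HOTAIR was first described to act, had islands in 6 libraries along most of its length. Covered length was 47.0 and 6.20 kb in Epi-CTR, 25.6 and 0 kb in Epi-HOT, 0 and 40.2 kb in Epi-HOT-dP, and 14.2 and 71.4 kb in Epi-HOT-dL. The most shared place was chr2:176944001-176946200 (2.2 kb), on the HOXD13 side. It lay in islands of Epi-CTR replicate 1 (FDR 1.36e-08), the 2 Epi-HOT-dL libraries (0.00959 and 7.28e-04), Epi-HOT-dP replicate 2 (0.00942) and Epi-HOT replicate 1 (0.00287), and was empty in Epi-CTR replicate 2. Every line thus had 1 or 2 libraries with LSD1 at this place.

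Further HOXD regions held islands of all 4 libraries of Epi-CTR and Epi-HOT-dL and of no library of the other lines. A region joins overlapping islands, so these libraries need not share a base. The pattern was noted in the data. Of 29 regions of all 8 lists in the windows 2 had it (6.90%), both in HOXD, and with the flanks 3 of 248 did (1.21%), against 1.08% of all 41795 regions. Because the short lists had no island in any window, the absence rests on Epi-HOT replicate 1 and on Epi-HOT-dP replicate 2. At chr2:177052601-177054200, towards HOXD1, both Epi-CTR libraries (FDR 0.00375 and 0.0264) and both Epi-HOT-dL libraries (0.0363 and 4.86e-06) had an island. Across the region chr2:176962001-176999200 the same 4 libraries had islands. The smallest FDR values were 6.40e-10 and 0.0255 in Epi-CTR and 0.00110 and 2.18e-10 in Epi-HOT-dL. These islands were not all at the same place, as Epi-CTR replicate 2 had only chr2:176968001-176971800. Epi-HOT-dL replicate 1 had chr2:176985201-176989000 and chr2:176990201-176995600, so no base lay in islands of all 4 libraries. Epi-HOT replicate 1 had islands on both sides of the whole region, among them chr2:177011801-177018600 (FDR 0.0326), and none within it. The same held for Epi-HOT-dP replicate 2, with an island at chr2:177013201-177023000 (FDR 0.0263).

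The remaining HOXD regions were held by 1 to 4 libraries. At the start of the window, chr2:176930201-176941600 held islands of Epi-HOT-dP replicate 2 (FDR 0.00543) and Epi-HOT-dL replicate 2 (0.0487). At chr2:177000601-177002400 there were narrow islands in Epi-CTR replicate 1 (FDR 3.35e-07) and Epi-HOT-dL replicate 2 (0.00196), and Epi-CTR replicate 1 had another at chr2:177005201-177007400 (1.74e-04). The region chr2:177011801-177030600, which includes both islands given last in the paragraph above, also held islands of Epi-CTR replicate 1 (FDR 0.00192) and Epi-HOT-dL replicate 2 (2.09e-05). Epi-HOT-dP replicate 2 alone had chr2:177037601-177045600 (FDR 0.0220).

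**Figure D3:**
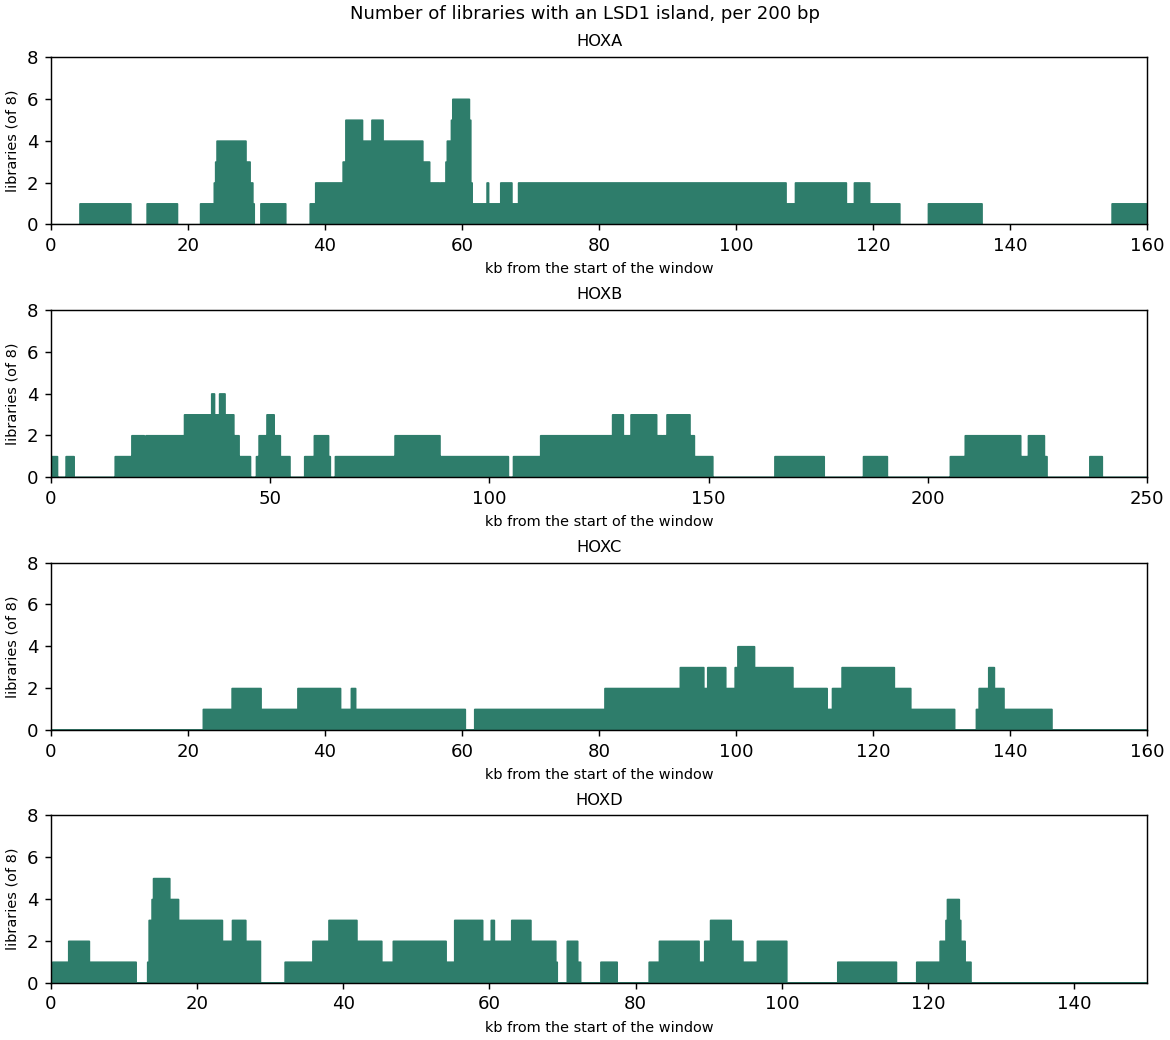
Height gives the number of the 8 IP libraries with an LSD1 island in each 200 bp bin, against the distance from the start of each HOX window in kb. HOXA reaches 6 libraries at 1 place and HOXD reaches 5, while HOXB and HOXC reach 4.

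Most of the covered length was seen in 1 or 2 libraries. Bins without any island made up 23.6% of HOXA, 30.6% of HOXB, 25.5% of HOXC and 31.9% of HOXD. Bins held by at least 4 libraries came to 11.8% of HOXA (18.8 kb), 0.720% of HOXB (1.80 kb), 1.5% of HOXC (2.40 kb) and 3.47% of HOXD (5.20 kb). HOXA thus had the longest shared stretch.

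Replicate cultures of a line shared part of their covered length, and so did libraries of different lines. The Epi-CTR libraries shared 30.0 kb in the windows, which was 11.9% of replicate 1 and 54.0% of replicate 2. The Epi-HOT-dL libraries shared 45.6 kb, or 72.4% of replicate 1 and 13.1% of replicate 2. The longest overlap joined different lines: Epi-CTR replicate 1 and Epi-HOT-dL replicate 2 shared 162 kb, or 64.3% and 46.4%. Epi-HOT and Epi-HOT-dP replicates shared none, since 1 library of each had no island. These overlaps are descriptions and move with the covered length of each list.

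The libraries without islands in the other windows had their nearest ones at varied distances. In Epi-HOT replicate 2 these lay 444 kb after HOXA (FDR 0.0123), 255 kb before HOXB (FDR 2.51e-24) and 292 kb after HOXD (FDR 6.28e-04). In Epi-HOT-dP replicate 1 they lay 195 kb after HOXA (FDR 5.18e-04), 297 kb before HOXB (FDR 3.90e-18) and 4824 kb before HOXD (FDR 0.00229). By rank the island before HOXB was 33 of 1778 in Epi-HOT replicate 2, and that in Epi-HOT-dP replicate 1 was 447 of 1116.

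The 1 Mb on each side of the clusters was covered unevenly. Flank coverage was 5.57% and 5.90% in Epi-CTR, 2.44% and 1.25% in Epi-HOT, 0.305% and 5.68% in Epi-HOT-dP, and 4.00% and 7.97% in Epi-HOT-dL. Both Epi-CTR libraries and both Epi-HOT-dL libraries lay above both Epi-HOT libraries, and the Epi-HOT-dP libraries lay on either side. Relative to the autosomal coverage of each library the order was another one: the ratio was 1.72 and 2.06 in Epi-CTR, 0.816 and 2.23 in Epi-HOT, 0.675 and 2.02 in Epi-HOT-dP, and 1.44 and 1.1 in Epi-HOT-dL, with Epi-HOT replicate 2 highest. The side before HOXD was nearly empty, with 3 islands of 2.80, 5.00 and 7.20 kb in Epi-CTR replicate 2 and the 2 Epi-HOT-dL libraries, the smallest FDR being 1.57e-04, at chr2:176026401-176033600 in Epi-HOT-dL replicate 2.

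Around HOXC most flank islands came from 5 libraries. Before the window, covered length was 110 and 122 kb in Epi-CTR, 54.0 and 5.20 kb in Epi-HOT, 0 and 128 kb in Epi-HOT-dP, and 59.0 and 207 kb in Epi-HOT-dL. Epi-HOT replicate 1 thus lay close to Epi-HOT-dL replicate 1 there. On that side, the merged region chr12:53436001-53482600 held islands of 6 libraries, with the smallest FDR in Epi-HOT-dL replicate 2 (5.46e-11). It included Epi-HOT replicate 1 (0.00256). The islands of Epi-CTR replicate 1 and Epi-HOT-dP replicate 2 in this region did not overlap, so no base was shared by all 6. After the window neither Epi-HOT library had any island within 1 Mb, nor had Epi-HOT-dP replicate 1, whereas Epi-CTR had 73.6 and 64.6 kb, Epi-HOT-dL had 45 and 40.0 kb and Epi-HOT-dP replicate 2 had 113 kb. The libraries without an island have the shortest lists (6557, 1778 and 1116 islands), and how often 1 Mb elsewhere is empty in them was not counted. The region after HOXC held by most libraries was chr12:54801601-54824200, in Epi-CTR replicate 1 (FDR 1.29e-06), Epi-HOT-dP replicate 2 (0.0354) and the 2 Epi-HOT-dL libraries (0.00148 and 0.00785). The smallest FDR after HOXC was 2.25e-11, at chr12:54873601-54875800 in Epi-CTR replicate 2 alone.

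Around HOXB, merged regions with islands of 5 libraries lay on both sides, and none of them had a base shared by all 5. The one before the window, chr17:45908801-45947000, was in both Epi-CTR libraries (FDR 6.61e-05 and 0.0282), Epi-HOT-dP replicate 2 (0.00996) and the 2 Epi-HOT-dL libraries (0.00144 and 0.050). Of 2 such regions after it, chr17:47507801-47561400 was in both Epi-CTR libraries (1.36e-08 and 0.00405), Epi-HOT replicate 1 (8.99e-04) and both Epi-HOT-dL libraries (0.00768 and 0.00135). The other, chr17:47639001-47672000, was in both Epi-CTR libraries (3.74e-08 and 7.17e-05), in the Epi-HOT-dL libraries (0.0354 and 3.30e-06) and Epi-HOT-dP replicate 2 (1.13e-05). The smallest FDR before the window came from a short list: chr17:46311801-46325000 had 2.51e-24 in Epi-HOT replicate 2, rank 33 of 1778, and both Epi-CTR libraries had islands there (0.0423 and 9.64e-05). After the window the smallest FDR was at chr17:47269001-47275000, with 2.44e-19 and 1.61e-09 in the Epi-CTR libraries and no island in the others. Next to the window, chr17:46545401-46573200 (27.8 kb, ending 6.80 kb before it), a region chosen after its values were seen, held islands of both Epi-CTR libraries (9.67e-10 and 0.00118) and of neither Epi-HOT library.

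Around HOXA and HOXD, 2 flank regions held islands in both Epi-CTR and both Epi-HOT libraries. After HOXD, chr2:177502001-177512600 had FDR values of 4.25e-04 and 9.08e-04 in Epi-CTR, 1.21e-04 and 1.83e-04 in Epi-HOT, and 1.09e-06 in Epi-HOT-dL replicate 2. After HOXA, chr7:27714401-27722800 had 0.0408 and 9.44e-04 in Epi-CTR and 0.0303 and 0.0123 in Epi-HOT, and no island in the other lines. The smallest FDR after HOXA was 1.71e-09, in Epi-HOT replicate 2 alone at chr7:28067401-28077000, and after HOXD 9.48e-07, in Epi-CTR replicate 1 alone at chr2:177353001-177356600. Before HOXA, chr7:26328001-26335400 had the smallest FDR in Epi-HOT replicate 1 (4.86e-09), with islands in both Epi-HOT-dL libraries (0.00418 and 0.00420). Each Epi-HOT library thus had at least 1 island below an FDR of 0.001 in the flanks.

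**Figure D4:**
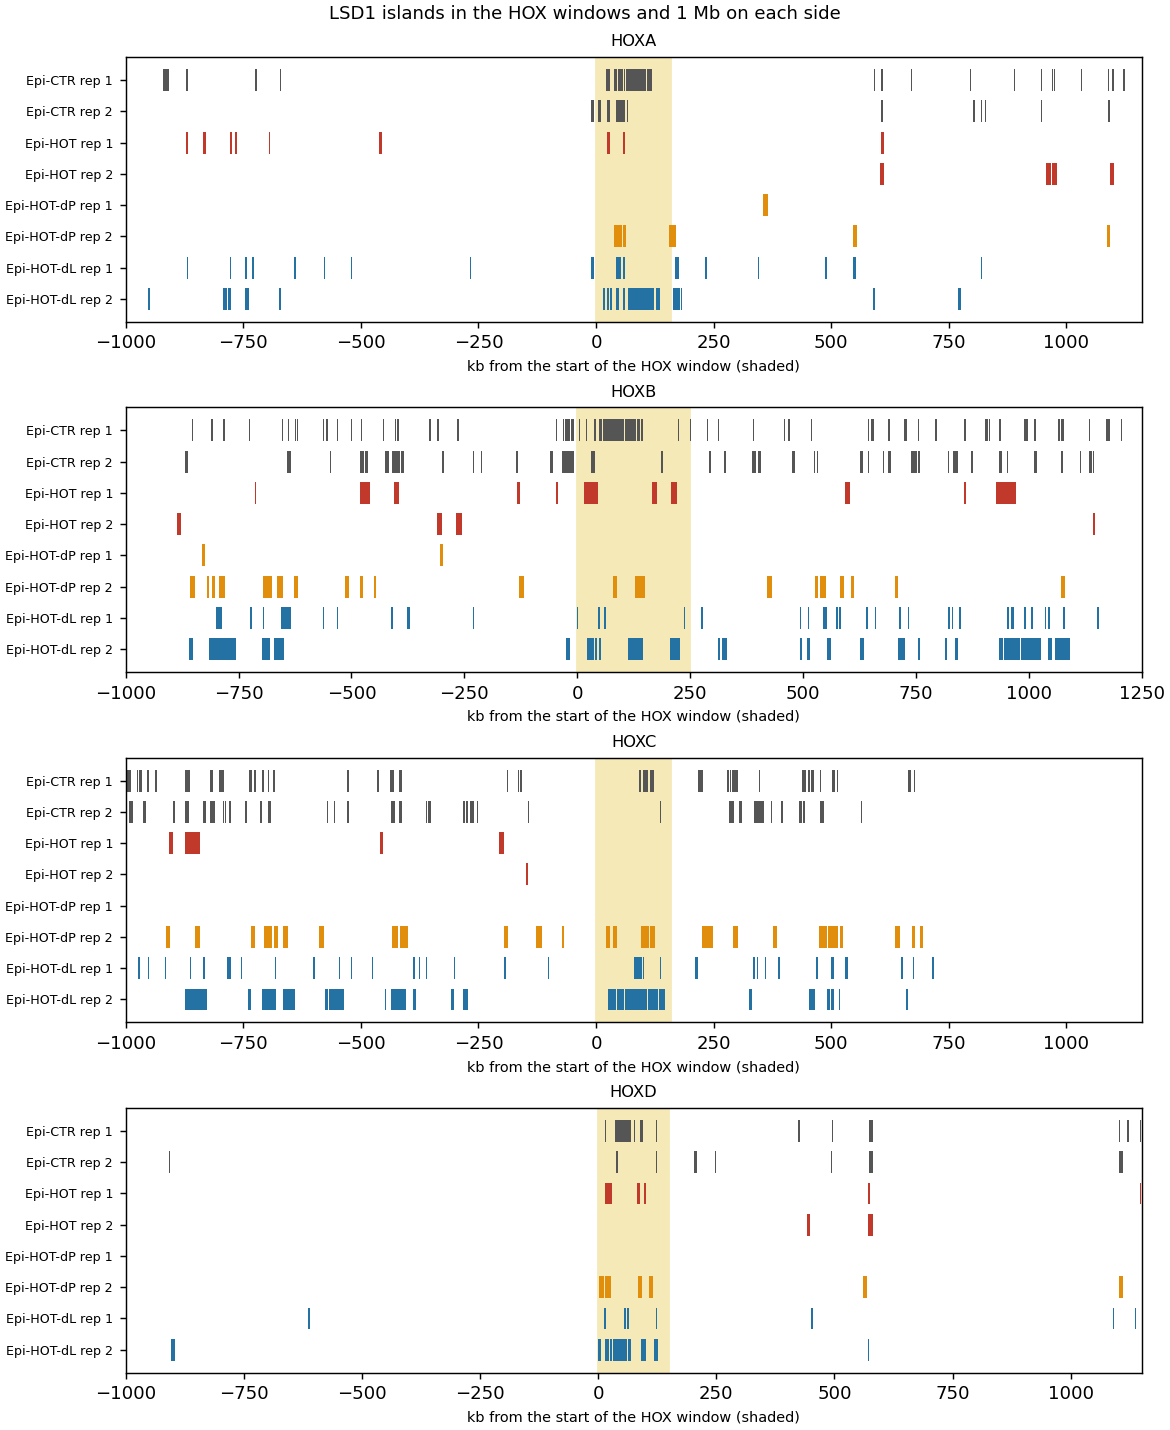
Each panel shows 1 HOX cluster, with the distance from the start of its window in kb on the horizontal axis and the window shaded; each row is an IP library and each bar an LSD1 island. Islands crowd into the shaded HOXA and HOXD windows, and the space before HOXD holds 3 islands. The space after HOXC holds none in either Epi-HOT library or in Epi-HOT-dP replicate 1, which have the shortest lists.

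The lines were compared by covered length, and no difference passed the threshold of 0.05. Epi-HOT and Epi-HOT-dP, whose HOTAIR keeps the part binding LSD1, were set against Epi-CTR, the control, and Epi-HOT-dL, whose HOTAIR lacks it. In the windows the means were 58.5 ± 71.2 kb (SD, n = 4) and 180 ± 144 kb (SD, n = 4), a difference of -121 kb (two-sided exact permutation test, p = 0.229, adjusted p = 0.229). With the flanks they were 252 ± 256 kb and 648 ± 259 kb, a difference of -396 kb (exact permutation test, p = 0.0857, adjusted p = 0.171 over 2 tests, smallest possible p 0.0286). Without the 2 short lists these differences were -62.7 and -207 kb (exact permutation test, adjusted p = 0.733 for both), with too few libraries left for the test to reach 0.05. Relative to each library's own autosomal coverage, the windows were 2.82 ± 3.48 times as covered in the first 4 libraries and 5.83 ± 3.76 times in the others (SD, n = 4, exact permutation test, p = 0.314, added after the data had been seen).

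Between single lines the windows with flanks differed by -420 kb in Epi-HOT against Epi-CTR (192 ± 130 against 612 ± 120 kb, SD, n = 2). All lengths in Epi-CTR (697 and 527 kb) lay above those in Epi-HOT (285 and 100 kb), and the exact permutation p of 0.333 is the smallest that 2 against 2 libraries can give. Epi-HOT-dL held 492 kb more than Epi-HOT (986 and 383 kb, exact permutation p = 0.333), again without overlap. That difference was 191 kb without Epi-HOT-dL replicate 2, 794 kb without Epi-HOT-dL replicate 1 and 60.9 kb with every list cut to the 1116 islands of the shortest, and the one between Epi-HOT and Epi-CTR was -20.1 kb with the cut lists. Epi-HOT-dP (24.4 and 599 kb) differed from Epi-HOT by 119 kb, with overlapping values (exact permutation p = 1.00). In the windows alone the differences were -109, 161 and 27.9 kb (exact permutation p = 0.667, 0.667 and 1.00), and all ranges overlapped.

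Region by region, LSD1 places present in both Epi-CTR cultures and absent from both Epi-HOT cultures were about as common near the HOX clusters as elsewhere. Of 193 regions of these 4 lists in windows and flanks, 28 (14.5%) were lost in Epi-HOT, against 15.1% of all 29678 regions. In the windows themselves 3 of 30 (10.0%) were lost, which were chr7:27173601-27217200 in HOXA and chr2:176965801-176975200 and chr2:177051601-177055000 in HOXD. None of the 193 was gained (background 0.145%), and 2 (1.04%) were kept in all 4 libraries (background 0.381%), the flank regions after HOXD and HOXA given above. In the windows no region could be gained or kept, since Epi-HOT replicate 2 had no island there. The lost count was 35 without Epi-HOT replicate 1 and 28 without the short list of replicate 2. The gained and kept counts were 14 and 9 without the short list of replicate 2, and 3 and 3 without replicate 1. The lost count was 81 without Epi-CTR replicate 1 and 108 without Epi-CTR replicate 2, since a single library then stood for the line.

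Places present in both Epi-HOT-dL cultures and in neither Epi-HOT culture were found in every cluster. Of the regions of these lists in the windows, 6 of 29 (20.7%) were gained, and with the flanks 24 of 163 (14.7%), against 11.5% of all 28682 regions. The 6 were chr7:27152601-27164200 in HOXA, chr17:46626801-46632200 in HOXB, chr12:54371801-54418200 and chr12:54445001-54456000 in HOXC, and chr2:176985201-176999000 and chr2:177048401-177055800 in HOXD. Just outside the HOXA window, chr7:27273801-27288000, also chosen after its values were seen, was gained as well (FDR 0.00484 and 0.00175). With the flanks, 1 region was lost (background 0.261%), the one after HOXA that Epi-CTR and Epi-HOT shared, and 0 were kept (background 0.195%). Without the short list of Epi-HOT replicate 2 the lost and kept counts were 18 and 5, and without Epi-HOT replicate 1 they were 10 and 0. The gained count was 29 without Epi-HOT replicate 1, 24 without Epi-HOT replicate 2, and 67 and 87 without replicate 1 or 2 of Epi-HOT-dL.

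Between Epi-HOT-dP and Epi-HOT, 0 of 93 regions were gained (background 0.811%), 2 were lost (2.15%, background 1.13%) and 0 were kept (background 0.0804%). Both lost regions were the flank regions after HOXD and HOXA named above, and none of the 19 regions in the windows changed in both cultures. Without the short list of Epi-HOT-dP replicate 1 the gained count was 53, and without Epi-HOT replicate 2 or 1 the lost count was 22 or 10. The 3 comparisons share the Epi-HOT libraries, so their counts are not independent, and with few shared regions per window each is a description without a test.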

How the data were processed

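LSD1 ChIP-seq lists of the 8 IP libraries were used. Bowtie2 2.1.0, SICER 1.1 and hg19 appear in the submitters' processing notes, which assign no step to them. Per the labels, each list holds islands from 200 bp windows with a gap of 1000 bp at an FDR of 0.05, after a further filter not described in the sources used here. The authors deposited 1 value per island, the FDR, which is a p-value for IP against Input after adjustment. Replicates were not pooled. Depth is unknown.

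Covered length and island counts were computed per library in each window, in 1 Mb on each side and along the 22 autosomes (2785 Mb between the first and last islands), with 1-based coordinates. For each pair of lines, overlapping islands (at least 1 bp) of the 4 lists were merged into regions. A region can thus join islands that do not overlap each other. Gained regions had an island in both cultures of the line named first and in no culture of the other, lost regions the reverse, and kept regions an island in all 4. Groups were compared with two-sided exact permutation tests over libraries and Benjamini-Hochberg adjustment. The p-values measure the spread between cultures of 4 lines, not between independently made lines. Comparisons of windows with flanks and autosomes used exact sign-flip tests and were added after the data had been seen.

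The text names every member by cluster, the merged regions in the windows, whole or by their most shared stretch, and in each flank the region held by most libraries and the smallest FDR. Members and lists were chosen with earlier results of these data known. Listed HOX cofactors and neighbouring genes were not located, since no annotation of hg19 was used here. Alternatives were an FDR of 0.001, islands with most of their length inside, lists cut to 1116 islands, islands merged within 5 kb, windows widened by 50 kb, a replicate block and each library left out. Scripts (Python 3.11.15, numpy 2.4.6, pandas 2.3.3, matplotlib 3.10.9) were tested on simulated data.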

Additional observations from a re-analysis of the deposited data

How the results depend on the processing

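No comparison of covered length between lines passed the threshold of 0.05 under any of the alternatives run, but several could not. Between single lines the smallest possible exact permutation p was 0.333. Leaving out both short lists, or using the replicate block, left too few regroupings to reach 0.05. The block kept regroupings within a replicate number and cannot change a difference. Its exact permutation adjusted p was 0.278 in the windows (-121 kb) and 0.222 with flanks (-396 kb). Nothing in the labels pairs same-numbered cultures. The difference of Epi-HOT-dP from Epi-HOT with flanks reversed to -3.0 kb with lists cut to the shortest, and ranged from -168 kb (without Epi-HOT-dP replicate 2) to 407 kb as each library was left out. The excess of the windows over flanks and over autosomes lost its call with an FDR below 0.001 (6.44 and 6.76 points), with lists cut to the shortest (2.91 and 2.76 points) and with windows widened by 50 kb (7.92 and 9.16 points). It also lost its call without any one of the 6 libraries that hold islands (8.39 to 13.9 and 9.74 to 14.9 points, exact test, adjusted p = 0.0893). The call was kept without either short list (up to 14.3 and 15.7 points). With lists cut to the shortest, the excess of HOXC turned to -0.466 points against its flanks and -0.546 against the autosomes. Fewer islands enter each shortened list, and no other cause was tested.

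With an FDR below 0.001, 36 islands remained in the windows. Near the clusters, Epi-HOT against Epi-CTR then had 5 regions lost and 1 kept, Epi-HOT-dL against Epi-HOT 4 gained and 0 lost, and Epi-HOT-dP against Epi-HOT 1 lost. With lists cut to the shortest, 8 islands remained, and the same counts were 1, 0, 0, 0 and 0. Leaving out 1 library at a time, Epi-HOT against Epi-CTR had 0 to 14 regions gained, 28 to 108 lost and 2 to 9 kept. Epi-HOT-dL against Epi-HOT had 24 to 87 gained, 1 to 18 lost and 0 to 5 kept, and Epi-HOT-dP against Epi-HOT had 0 to 53 gained and 2 to 22 lost. Depth limits all of this, since the lists give none.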
